A study of Mus musculus with 15 samples.

Results

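Genes that mark B cells, T cells and natural killer (NK) cells were followed in 15 mouse aortas. A list of 37 such genes was taken by name, and each gene was read through 1 array feature (probe set), the brightest of those annotated to that gene alone. Of these, 35 genes had such a probe set among the 18193 genes measured: 14 B cell genes, 14 T cell genes, 5 NK and cytotoxic genes, and Rag1 and Thy1, which belong to none of the 3 groups. Lck and Tcf7 were not analysed here. Each value is a log2 level, so a difference of 1 is a doubling.

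RNA came from the whole aorta, root to bifurcation, of male C57BL/6 mice aged 9 weeks, with 1 Affymetrix array for each mouse. All mice were ApoE-/-, lacking apolipoprotein E, so that none of the groups had normal lipid handling. The groups were 4 diabetic mice without RAGE, which binds advanced glycation end products (ApoE-/- RAGE-/-, here ApoE/RAGE null, replicates 9 to 12), 3 non-diabetic ApoE/RAGE null mice (replicates 13 to 15), 4 diabetic ApoE null mice (replicates 1 to 4) and 4 non-diabetic ApoE null mice (replicates 5 to 8). At age 6 weeks the diabetic mice were given streptozotocin, a toxin of the insulin-producing beta cells, in 5 daily doses of 65 mg/kg, and the other mice received citrate buffer. A commercial supplier provided the ApoE null mice, whereas the ApoE/RAGE null mice were from a different laboratory, so genotype and colony cannot be told apart. Where values are given for every array, they stand in the order of these replicate numbers.

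B cells carry an antigen receptor made of an immunoglobulin and the signalling chains Cd79a and Cd79b, and T cells carry a receptor that signals through the CD3 chains and Cd247. NK cells and cytotoxic T cells kill through granules that hold perforin and granzymes. In mouse arteries lymphocytes are found mainly in the outer coat, the adventitia, and lymph nodes lie in the fat along the aorta. The aortas of ApoE null mice gather lymphocytes as atherosclerosis advances.

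The promoters of these genes are known to be read by lymphocyte transcription factors. Stretches of 100 bases upstream of the annotated start of 6 genes are shown, because each holds a short motif bound by such a factor family and because 5 of the 6 genes shared the pattern across arrays described below, the exception being Rag1. Sequences are from RefSeq (GRCm38.p6), 5′ to 3′ on the gene's strand, and capitals mark the match. Positions count back from -1, the base before the start. The start is the one in RefSeq's promoter table, which for Cd22 lies 1314 bases inside the annotated gene, for Cd3e 52 and for Il7r 65, so that the Cd22 stretch lies within the gene and those of Cd3e and Il7r partly do. Cd79a (chr7:24897397-24897496, plus strand) holds the ETS motif CAGGAAGT at -56 to -49. Cd3e (chr9:45009612-45009711, minus strand), Il7r (chr15:9529877-9529976, minus strand) and Rag1 (chr2:101649633-101649732, minus strand) hold it in reverse orientation. Blnk (chr19:40994322-40994421, minus strand) holds the octamer ATTTGCAT, the site of the OCT factors that work with the B cell coactivator Pou2af1. In Cd22 (chr7:30879029-30879128, minus strand) the capitals cover 2 overlapping matches, 1 on each strand, to the EBF motif CCCNNGGGA.
Cd79a: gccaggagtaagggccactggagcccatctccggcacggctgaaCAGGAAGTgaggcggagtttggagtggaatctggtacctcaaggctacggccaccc
Blnk: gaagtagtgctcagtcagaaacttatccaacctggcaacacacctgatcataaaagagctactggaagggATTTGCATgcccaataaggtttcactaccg
Cd22: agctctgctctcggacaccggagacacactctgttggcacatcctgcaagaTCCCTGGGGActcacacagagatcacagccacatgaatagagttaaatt
Cd3e: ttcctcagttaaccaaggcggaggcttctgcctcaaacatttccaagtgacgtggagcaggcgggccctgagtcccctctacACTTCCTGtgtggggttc
Il7r: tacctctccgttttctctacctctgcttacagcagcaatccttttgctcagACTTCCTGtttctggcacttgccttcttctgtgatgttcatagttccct
Rag1: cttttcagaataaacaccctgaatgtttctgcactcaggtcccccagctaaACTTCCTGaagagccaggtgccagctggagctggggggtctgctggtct

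Over the 250 bases upstream of the start, on both strands, the ETS motif was found in 7 of the 25 listed genes with a promoter sequence (28.0%), against 2.69% of 32851 windows. The 7 were Cd79a, Blnk, Cd247, Cd3e, Il7r, Prf1 and Rag1, which span all the cell types of the list. The octamer was found in 1 of 25 (Blnk) against 1.6% of windows, and the EBF motif in 1 of 25 (Cd22) against 5.6%. The TCF motif CTTTGAT was found in 1 of 25 (Cd3d) against 3.21%, and the RUNX motif TGTGGTT in 3 of 25 (Gzma, Gzmb and Rag1) against 4.4%. The shares count a gene once if any of its windows matched. These are descriptions of letters in a window, and no test was made. The motifs carried forward were chosen after a first look at matches that had covered 7 patterns over longer windows, among them a longer EBF form and an NF-kB motif that are not given here, and the windows printed were chosen for holding a match.

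Acta2, the smooth muscle actin of the aortic wall and of other smooth muscle, lay between 13.19 and 13.45 on all 15 arrays. It is 1 of 7 smooth muscle genes read here, and the others were less even. The scores of the 7 (their mean deviation from their own means) ran from -0.49 in replicate 11 to 0.36 in replicate 3. Other tissue differed more between arrays, with scores of skeletal muscle genes of -2.44 to 3.07. Pairwise correlations between arrays were 0.972 to 0.997, and replicate 10 had the lowest median correlation with the others, 0.974. The labels of 2 arrays are in doubt. In Decr2, a gene on the same chromosome as Ager (which encodes RAGE) that was chosen after its values were seen, the diabetic arrays labelled ApoE/RAGE null read 5.19, 5.10, 7.40 and 7.56, against 6.84 to 6.98 in their non-diabetic counterparts, 5.32 to 5.88 in diabetic ApoE null arrays and 5.57 to 6.01 in non-diabetic ApoE null arrays. Replicates 9 and 10 thus read like ApoE null arrays, whereas replicates 11 and 12 did not. The Ager probe sets do not check the genotype, since whether they lie in the deleted part is not given in the sources used here. The brighter of the 2 read 4.63, 4.48, 5.36 and 4.95 in replicates 9 to 12, and 4.89 to 5.09 in non-diabetic ApoE/RAGE null arrays. It read 4.17 to 4.62 in diabetic and 4.45 to 4.69 in non-diabetic ApoE null arrays. Replicates 9 and 10 thus lay within the range of the ApoE null arrays in this probe set too, and replicates 11 and 12 above it. The dimmer lay between 3.08 and 3.66 on all arrays. Group comparisons that use the diabetic ApoE/RAGE null group are therefore given as labelled, with medians and named genes also without replicates 9 and 10.

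One aorta stood above all others in lymphocyte transcripts. The array of diabetic ApoE/RAGE null replicate 10 was the highest of the 15 for 30 of the 35 genes, against 10.9% of all probe sets, and lay more than 1 above the gene's median over the arrays for 27 of them. Replicate 10 was the highest for 13 of 14 B cell genes, 13 of 14 T cell genes, 3 of 5 NK and cytotoxic genes and Thy1. More than 1 above the median were 13 B cell genes, 12 T cell genes and 2 NK and cytotoxic genes. The share of all probe sets more than 1 above their median is not given here. The 5 genes that were not highest there were Pax5, Zap70, Gzmb, Prf1 and Rag1. In whole tissue, more cells of a type and more RNA per cell cannot be told apart.

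**Figure D1:**
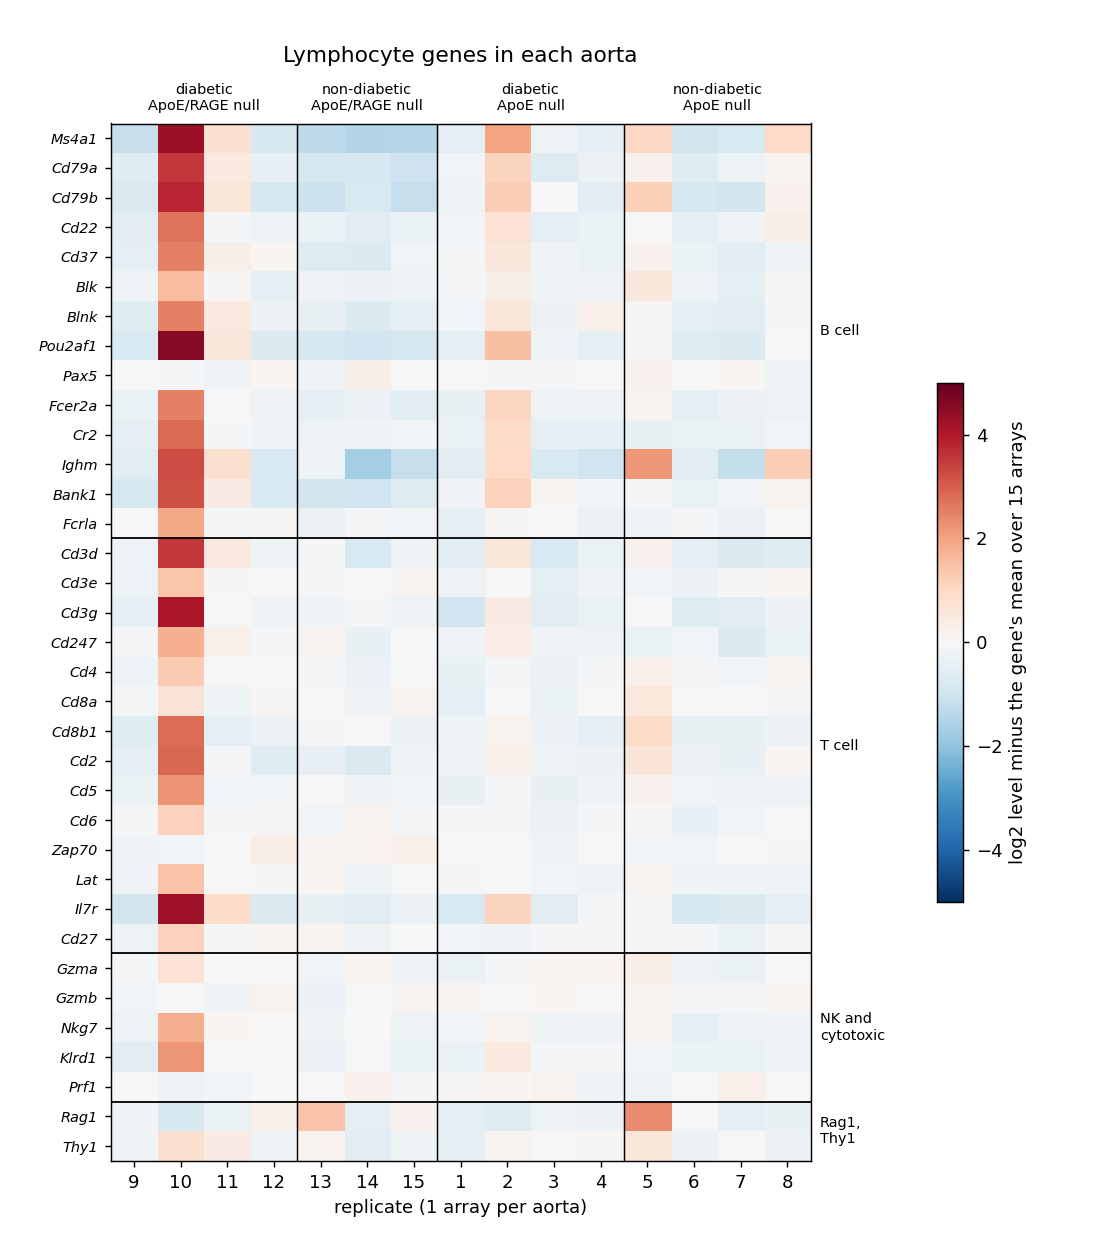
Log2 level of each of the 35 lymphocyte genes (rows) on each of the 15 arrays (columns, by group and replicate), as the difference from the gene's mean over all arrays; red is above and blue below the mean. The column of replicate 10 is the reddest for 30 genes, the column of replicate 2 is red mainly among B cell genes, and Rag1 is reddest in replicate 5.

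Among the B cell genes, Ms4a1 encodes the surface protein CD20. Ms4a1 read 3.08, 8.51, 5.00 and 3.47 in diabetic ApoE/RAGE null aortas, against 2.93, 2.80 and 2.81 in non-diabetic ApoE/RAGE null aortas. It read 3.80, 6.23, 4.00 and 3.78 in diabetic ApoE null aortas, against 5.27, 3.35, 3.47 and 5.23 in non-diabetic ones. The 3 non-diabetic ApoE/RAGE null arrays lay below every other array, and replicates 10, 2, 5, 8 and 11 were the highest, in that order.

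Cd79a, a signalling chain of the B cell receptor, ranked the arrays in much the same way. Cd79a read 3.55, 7.69, 4.65 and 3.74 in diabetic ApoE/RAGE null aortas, against 3.36, 3.37 and 3.12 in non-diabetic ApoE/RAGE null aortas. Its levels in ApoE null aortas were 4.03, 5.28, 3.51 and 3.87 with diabetes, against 4.37, 3.54, 3.89 and 4.31 without. Again the non-diabetic ApoE/RAGE null arrays were the 3 lowest of all 15. Cd79b, its partner chain, spanned 2.85 in replicate 15 to 7.79 in replicate 10.

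Pou2af1, the coactivator that OCT factors use in B cells, had a wide span. Pou2af1 read 2.27, 7.57, 3.60 and 2.34 in diabetic ApoE/RAGE null aortas, against 2.23, 2.06 and 2.23 in non-diabetic ApoE/RAGE null aortas. In the ApoE null aortas it read 2.57, 4.53, 2.80 and 2.56 with diabetes, against 2.96, 2.37, 2.33 and 3.00 without. Replicates 10, 2 and 11 were above the rest, and the other 12 arrays lay between 2.06 and 3.00.

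Ighm, the heavy chain of immunoglobulin M, had a different order of arrays through its brightest probe set. Ighm read 7.53, 11.37, 8.90 and 7.34 in diabetic ApoE/RAGE null aortas, against 7.90, 6.38 and 6.94 in non-diabetic ApoE/RAGE null aortas. It read 7.59, 9.11, 7.34 and 7.09 in diabetic ApoE null aortas, against 10.25, 7.55, 6.89 and 9.32 in non-diabetic ones. Replicate 10 was highest, followed by the non-diabetic ApoE null replicates 5 and 8 and only then by replicate 2. Ighm has 11 probe sets annotated to it alone, and some may take up other immunoglobulin transcripts. Another bright one gave the same order, with 10.20, 8.57, 8.04 and 8.00 in replicates 10, 5, 8 and 2. A dimmer one read 7.66, 5.99 and 4.29 in replicates 10, 2 and 11, and 3.54 in replicate 5. The order of arrays below replicate 10 thus differed between probe sets of this gene.

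The remaining B cell genes were the adaptor Blnk, the kinase Blk, the scaffold Bank1, the tetraspanin Cd37, the receptors Cd22, Cr2 and Fcer2a, the receptor-like Fcrla and the transcription factor Pax5. Replicate 10 led in all of these except Pax5. Bank1 read 8.01 there and 5.97 in replicate 2, and at most 5.22 elsewhere. Pax5, which sets B cell identity, lay between 3.19 and 3.68 on every array, and its probe set did not follow the other B cell genes. Among all 14 B cell genes replicate 2 was second highest in 10 and replicate 5 in 3.

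T cell genes followed the same array, but few others. Cd3d, Cd3e and Cd3g are the CD3 chains of the T cell receptor. Cd3g read 7.34 in replicate 10 and at most 3.66, in replicate 2, elsewhere. Cd3e read 4.84, 6.47, 5.15 and 5.12 in diabetic ApoE/RAGE null aortas, against 5.01, 5.05 and 5.23 in non-diabetic ApoE/RAGE null aortas. Its levels in ApoE null aortas were 4.81, 5.08, 4.65 and 4.89 with diabetes, against 4.95, 4.77, 5.02 and 5.18 without. Outside replicate 10 the Cd3e values of the 4 groups overlapped.

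**Figure D2:**
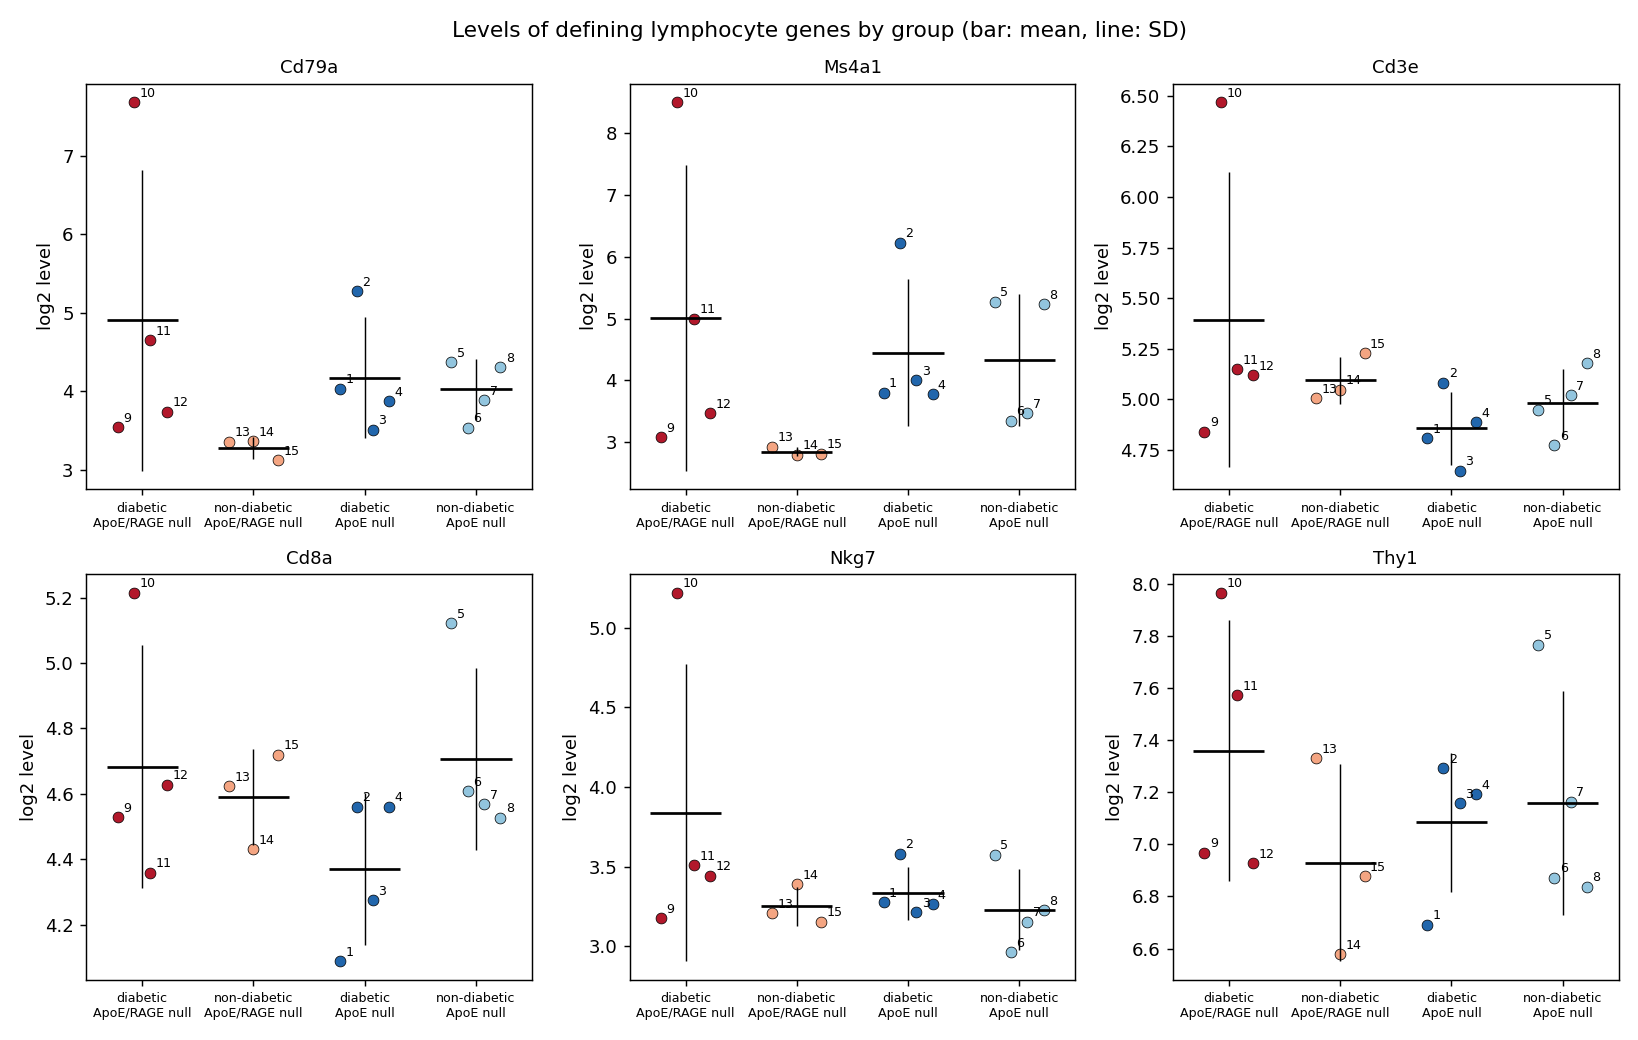
Log2 level of Cd79a, Ms4a1, Cd3e, Cd8a, Nkg7 and Thy1 in each aorta by group; points are arrays with their replicate number, bars are group means and vertical lines the SD, and each panel has its own axis. Replicate 10 is the top point of every panel, and the 3 non-diabetic ApoE/RAGE null arrays are the lowest for Cd79a and Ms4a1.

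Cd8a and Cd8b1 form the co-receptor of cytotoxic T cells and Cd4 that of helper T cells. Cd8a read 4.53, 5.21, 4.36 and 4.63 in diabetic ApoE/RAGE null aortas, against 4.62, 4.43 and 4.72 in non-diabetic ApoE/RAGE null aortas. In the ApoE null aortas it read 4.09, 4.56, 4.27 and 4.56 with diabetes, against 5.12, 4.61, 4.57 and 4.53 without. Through this brightest of its 5 probe sets, replicates 10 and 5 were high and close to each other. The dimmer probe sets of Cd8a disagreed. In replicates 10 and 5, 1 of them read 4.40 and 3.41, and another 2.81 and 3.02. Cd8b1 was highest in replicates 10 (6.13) and 5 (4.26), with all other arrays between 2.74 and 3.51. Cd4 reached 6.60 in replicate 10 and lay between 4.94 and 5.53 elsewhere.

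Il7r, the receptor for interleukin 7 that keeps resting T cells alive, reached 8.39 in replicate 10, 5.28 in replicate 2 and 5.06 in replicate 11, and at most 4.10 elsewhere. Cd247, Cd2, Cd5, Cd6, Cd27 and the adaptor Lat were also highest in replicate 10. Zap70, the kinase that binds the CD3 chains and Cd247, was flat, between 6.75 and 7.26, through its brightest probe set. A dimmer probe set of Zap70 read 4.21 in replicate 10 and 2.78 to 3.22 on the other arrays, so the probe sets of this gene disagreed.

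Of the 5 NK and cytotoxic genes 3 were highest in replicate 10, and none of the 5 passed the filter on dim probe sets. Nkg7, a granule membrane protein, read 5.22 in replicate 10, against 2.96 to 3.58 elsewhere. Klrd1, the NK receptor chain CD94, read 4.82 there, against 2.04 to 3.12. Gzma read 3.96, 4.76, 4.03 and 4.02 in diabetic ApoE/RAGE null aortas, against 3.90, 4.13 and 3.83 in non-diabetic ApoE/RAGE null aortas. It read 3.73, 4.00, 4.17 and 4.17 in diabetic ApoE null aortas, against 4.39, 3.79, 3.73 and 4.08 in non-diabetic ones. Gzma, granzyme A, was thus highest in replicate 10 and next in replicate 5, by small margins. Gzmb, granzyme B, lay between 2.77 and 3.25, and Prf1, perforin, between 3.59 and 4.10, with no array apart.

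Rag1 did not follow the other genes. Rag1 cuts DNA to assemble antigen receptor genes in developing lymphocytes, as in the thymus. Rag1 read 3.27, 2.65, 3.13 and 3.69 in diabetic ApoE/RAGE null aortas, against 4.89, 3.01 and 3.66 in non-diabetic ApoE/RAGE null aortas. Its levels in ApoE null aortas were 2.99, 2.83, 3.18 and 3.15 with diabetes, against 5.80, 3.41, 2.97 and 3.08 without. Replicate 5 was the highest array, replicate 13 the second, and replicate 10 the lowest of all 15. Thy1 is carried by mouse T cells and also by fibroblasts and neurons. Thy1 read 6.97, 7.97, 7.57 and 6.93 in diabetic ApoE/RAGE null aortas, against 7.33, 6.58 and 6.88 in non-diabetic ApoE/RAGE null aortas. In the ApoE null aortas it read 6.69, 7.29, 7.16 and 7.19 with diabetes, against 7.77, 6.87, 7.16 and 6.84 without. Replicates 10, 5 and 11 were the highest, and all groups overlapped.

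The summary of each array was a score, the mean over a list's genes of the level minus the gene's own mean over the 15 arrays. The B cell score reached 2.79 in replicate 10 and 0.87 in replicate 2. It was 0.36, 0.29 and 0.16 in replicates 5, 11 and 8, and between -0.66 and -0.25 in the other 10 arrays. The score of T and NK cell genes together was 1.73 in replicate 10, and between -0.28 and 0.16 in the others. Replicate 10 therefore led both scores. Replicate 2 came next in both, well above the rest in the B cell score. In the T and NK cell score it was at 0.16, close to replicate 5 at 0.14.

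The balance between the lists was taken as the B cell score minus the T and NK cell score. By group it was 0.20 ± 0.63 in diabetic ApoE/RAGE null aortas (SD, n = 4), -0.49 ± 0.02 in non-diabetic ApoE/RAGE null aortas (n = 3), 0.13 ± 0.39 in diabetic ApoE null aortas (n = 4) and 0.04 ± 0.26 in non-diabetic ApoE null aortas (n = 4). The highest single values were 1.06 in replicate 10 and 0.71 in replicate 2. In the diabetic ApoE/RAGE null group it was -0.23 in replicate 9, and 0.27 and -0.31 in replicates 11 and 12, whose labels are not in doubt. The 3 non-diabetic ApoE/RAGE null arrays, at -0.50 to -0.47, were the lowest of all 15, the next being replicate 12 at -0.31. These scores compare deviations of genes from their own means, not levels between genes.

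**Figure D3:**
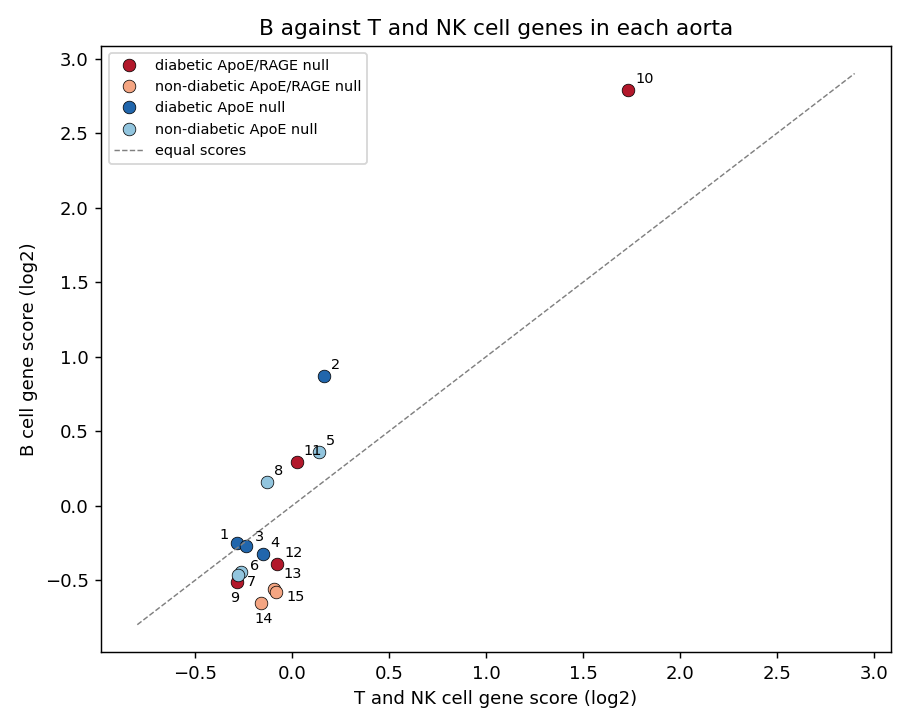
B cell gene score (vertical axis) against the score of T and NK cell genes (horizontal axis), both log2, for each of the 15 aortas, numbered by replicate and coloured by group; the dashed line marks equal scores. Replicate 10 lies far from the rest on both axes and above the line. Replicates 2, 5, 8 and 11 also lie above the line, and replicate 1 just above it. The non-diabetic ApoE/RAGE null replicates 13 to 15 lie lowest on the vertical axis.

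Differences between groups were tested with limma over all 45037 probe sets, with adjusted p-values (Benjamini-Hochberg) under 0.05 taken as called. Across the 4 comparisons and the interaction no lymphocyte gene was called, so the differences given below are sizes with their errors, not calls. Differences are the first-named group minus the second.

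In ApoE null mice, lymphocyte genes of diabetic and non-diabetic aortas overlapped throughout. Of the 35 genes 0 were called (background 0% of probe sets), 0 had an unadjusted p under 0.05 (background 5.78% higher and 4.86% lower), and 0 had a log odds B above 0, the submitters' threshold (background 0.169%). The values of the 2 groups overlapped for all 35 genes, whereas 6.07% of probe sets had groups apart. B cell genes had a median difference of 0.17 with 10 of 14 positive, T cell genes -0.00 with 7 of 14 positive, and NK and cytotoxic genes 0.03 with 5 of 5 positive. Over all probe sets the median was -0.01, with 48.3% positive.

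Cd8a, through its brightest probe set, had the smallest p of the list in this comparison. It averaged 4.37 ± 0.23 in diabetic and 4.71 ± 0.28 in non-diabetic ApoE null aortas (SD, n = 4 each), a difference of -0.34 ± 0.18 (SE; limma adjusted p = 0.527). Rag1 (-0.77 ± 0.52) and Cd4 (-0.24 ± 0.25) had negative and Cd247 (0.31 ± 0.32) positive differences that were smaller relative to their error. Without replicate 2, the diabetic array with high B cell genes, the B cell median was -0.12 and the T cell median -0.18. All 8 pan-leukocyte genes (median 0.50) and all 8 skeletal muscle genes (median 1.22) had positive differences here, and their part was not tested.

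Without diabetes, 12 of the 14 B cell genes had negative differences between ApoE/RAGE null and ApoE null aortas, with a median of -0.28, against a median of -0.00 and 49.0% positive over all probe sets. T cell genes had a median of 0.09 (9 of 14 positive), and NK and cytotoxic genes 0.02 (3 of 5 positive). Ms4a1 averaged 2.85 ± 0.07 (SD, n = 3) in non-diabetic ApoE/RAGE null and 4.33 ± 1.07 (n = 4) in non-diabetic ApoE null aortas, a difference of -1.48 ± 1.02 (SE; limma adjusted p = 1). Ighm differed by -1.43 ± 0.92 (limma adjusted p = 1).

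Groups without overlap were found for 4 B cell genes that were lower in ApoE/RAGE null, namely Ms4a1, Cd79a, Pou2af1 and Bank1, against 2.66% of probe sets. Zap70 was the 1 gene higher without overlap, against 2.11% of probe sets, at 7.10 ± 0.09 (SD, n = 3) in ApoE/RAGE null and 6.87 ± 0.09 (n = 4) in ApoE null aortas (difference 0.23 ± 0.11, SE; limma adjusted p = 1). In this comparison 0 genes were called (background 0%), 0 had an unadjusted p under 0.05 (background 1.23% higher and 1.34% lower) and 0 had B above 0 (background 0%).

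The spread that limma pooled over 4 groups included replicate 10. A fit of the 7 non-diabetic arrays alone gave an unadjusted p under 0.05 for 5 genes. Lower were Bank1 (-0.75 ± 0.14, SE; limma adjusted p = 0.705), Cd79a (-0.74 ± 0.19), Ms4a1 (-1.48 ± 0.48) and Pou2af1 (-0.49 ± 0.18), against 1.92% of probe sets lower. Zap70 was higher (0.23 ± 0.09), against 1.35% of probe sets. The limma adjusted p was 1 for each of these except Bank1, so none was called in this fit either. Of other cells' markers, all 8 pan-leukocyte genes also had negative differences here, with a median of -0.40, and so did all 8 skeletal muscle genes, with a median of -0.72. All 10 macrophage genes were negative too (median -0.12), as were 6 of 7 neutrophil genes (median -0.32) and all 4 erythrocyte genes (median -0.76). In the fit of 4 groups, 4 neutrophil and 2 erythrocyte genes were lower at an unadjusted p under 0.05 (background 1.34%). The part of these other markers in the B cell difference was not tested.

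In ApoE/RAGE null mice the medians with diabetes were positive for all 3 lists when every array was used. Of the B cell genes 13 of 14 had positive differences with a median of 1.05, of the T cell genes 13 of 14 with a median of 0.44, and of the NK and cytotoxic genes 4 of 5 with a median of 0.24. Over all probe sets the median was -0.02, with 45.0% positive. Of the 35 genes 0 were called (background 0%), 2 were higher at an unadjusted p under 0.05 (background 3.6%), 0 were lower at that p (background 3.65%), and 0 had B above 0 (background 0.00888%).

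The 2 genes were Cd79a and Cd37. Cd79a averaged 4.91 ± 1.91 in diabetic (SD, n = 4) and 3.28 ± 0.14 in non-diabetic ApoE/RAGE null aortas (n = 3), a difference of 1.62 ± 0.73 (SE; limma adjusted p = 0.683). Cd37, a tetraspanin of mature B cells, differed by 1.10 ± 0.50 (limma adjusted p = 0.687). Ms4a1 (2.17 ± 1.02; limma adjusted p = 0.689) and Bank1 (1.36 ± 0.69; adjusted p = 0.699) came next. Groups did not overlap for 3 genes, Ms4a1, Cd79a and Pou2af1, against 2.41% of probe sets higher without overlap. The gaps were small. The lowest diabetic values, all in replicate 9, whose label is in doubt, were 3.08, 3.55 and 2.27. The highest non-diabetic values were 2.93, 3.37 and 2.23. Pou2af1 did not pass the filter on dim probe sets.

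Without replicate 10 the medians were 0.40 for B cell genes, -0.05 for T cell genes and 0.03 for NK and cytotoxic genes, 0 genes had an unadjusted p under 0.05, and 9 of 35 genes had the opposite sign. Without replicates 9 and 10, the 2 arrays whose label is in doubt, they were 0.63, 0.04 and 0.07. In that fit Cd79a differed by 0.91, Cd37 by 0.67, Ms4a1 by 1.39 and Bank1 by 0.67, each with a limma adjusted p of 0.999. Without replicate 9 alone, the B cell median was 1.42 and 14 genes had an unadjusted p under 0.05, and without replicate 12 it was 10 genes. The share of all probe sets at that p is not given for these fits, so their counts have no background to be read against. Skeletal muscle genes separated the same groups, with scores of 1.23 to 3.07 in diabetic and -2.44 to -1.42 in non-diabetic ApoE/RAGE null arrays. Pan-leukocyte genes had scores of -0.66 to 3.10 in diabetic and -0.77 to -0.58 in non-diabetic ApoE/RAGE null arrays. With all arrays, all 10 macrophage genes had positive differences (median 0.58, 7 at an unadjusted p under 0.05). So did all 7 neutrophil genes (median 0.44, 4 at that p). Whether any of these sets has a part in the lymphocyte differences was not tested.

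Between diabetic ApoE/RAGE null and diabetic ApoE null aortas the medians were positive for all 3 lists when every array was used. The median difference was 0.57 for B cell genes (13 of 14 positive), 0.54 for T cell genes (14 of 14) and 0.18 for NK and cytotoxic genes (3 of 5), against a median of -0.00 and 49.0% positive over all probe sets. Of the 35 genes 0 were called (background 0.244%), 0 had an unadjusted p under 0.05 (background 5.6% higher and 9.21% lower) and 0 had B above 0 (background 0.713%). No gene had groups without overlap, against 6.5% of probe sets.

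Cd3e had the smallest p here. It averaged 5.39 ± 0.73 in diabetic ApoE/RAGE null and 4.86 ± 0.18 in diabetic ApoE null aortas (SD, n = 4 each), a difference of 0.54 ± 0.25 (SE; limma adjusted p = 0.345). Cd4 differed by 0.47 ± 0.25 (adjusted p = 0.398), Cd3d by 1.14 ± 0.64 (adjusted p = 0.43) and the B cell gene Fcrla by 0.64 ± 0.32 (adjusted p = 0.373), all by limma. Without replicate 10 the medians were -0.21 for B cell genes, 0.10 for T cell genes and -0.08 for NK and cytotoxic genes, so that the B cell and NK medians had the opposite sign. Of the 35 genes 18 had the opposite sign in that fit. Without replicates 9 and 10 the medians were -0.08, 0.15 and 0.01, and Cd3e differed by 0.28, Cd4 by 0.20, Cd3d by 0.39 and Fcrla by 0.17. With all arrays, positive differences were also found for 8 of 8 skeletal muscle genes (median 2.05, 6 at an unadjusted p under 0.05), 8 of 8 pan-leukocyte genes (median 0.47) and 7 of 7 neutrophil genes (median 0.53, 2 at that p). All 7 smooth muscle genes had negative differences (median -0.26, 3 at that p). The part of these genes in the lymphocyte differences was not tested.

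The interaction asks whether the difference with diabetes was another in ApoE/RAGE null than in ApoE null mice. The median interaction was 0.86 for B cell genes (13 of 14 positive), 0.53 for T cell genes (13 of 14) and 0.22 for NK and cytotoxic genes (4 of 5), against 0.00 and 50.4% positive over all probe sets. Ighm, through its brightest probe set, had the smallest p, with an interaction of 2.43 ± 1.26 (SE, limma adjusted p = 0.716). Cd4 came next (0.64 ± 0.36, limma adjusted p = 0.745). Of the 35 genes 0 were called (background 0%), 0 had an unadjusted p under 0.05 (background 2.29% higher and 4.92% lower) and 0 had B above 0 (background 0%). Without replicate 10 the medians were 0.13, -0.06 and 0.00. Without replicates 9 and 10 they were 0.29, 0.06 and 0.05, with 1.77 for Ighm and 0.37 for Cd4. Skeletal muscle genes (8 of 8, median 2.78), pan-leukocyte genes (8 of 8, median 0.84) and neutrophil genes (6 of 7, median 0.85) had positive interactions as well, and their part was not tested. The comparisons share arrays, so their values are not independent of each other.

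**Figure D4:**
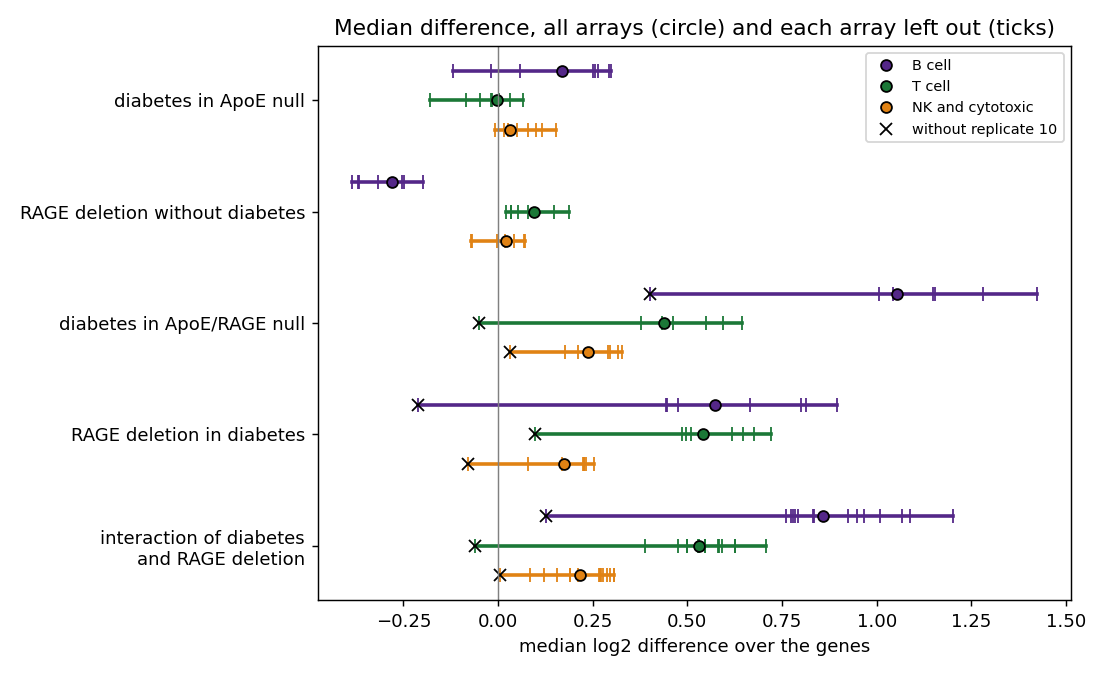
Median log2 difference over the B cell (purple), T cell (green) and NK and cytotoxic genes (orange) in each comparison; circles use all 15 arrays, ticks each fit with 1 array left out, and crosses the fit without replicate 10. In the 3 comparisons that use the diabetic ApoE/RAGE null group the cross is the lowest mark of every line, and for B cell genes with RAGE deletion in diabetes it lies at -0.21, against 0.57 with all arrays.

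Genes of other cell types show what else differed in the arrays with high lymphocyte genes. Of 6 listed genes of lymph node stroma and high endothelial venules, the vessels by which lymphocytes enter lymph nodes, 4 were measured and all 4 were highest in replicate 10. Glycam1, a mucin of those venules that L-selectin binds, showed it most. Glycam1 read 3.10, 11.47, 8.44 and 3.19 in diabetic ApoE/RAGE null aortas, against 2.51, 2.89 and 3.09 in non-diabetic ApoE/RAGE null aortas. It read 2.79, 8.89, 2.72 and 4.56 in diabetic ApoE null aortas, against 3.10, 2.78, 3.13 and 3.19 in non-diabetic ones. Replicates 10, 2 and 11 were far above the rest, replicate 4 was next, and the other 11 arrays lay between 2.51 and 3.19.

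Cxcl13, the chemokine that draws B cells into follicles, varied more evenly. Cxcl13 read 6.70, 9.89, 6.77 and 5.08 in diabetic ApoE/RAGE null aortas, against 4.41, 4.34 and 5.03 in non-diabetic ApoE/RAGE null aortas. Its levels in ApoE null aortas were 4.55, 7.31, 5.96 and 5.22 with diabetes, against 6.69, 4.71, 3.69 and 6.62 without. It was highest in replicates 10 and 2 and lowest in replicate 7. Replicates 5 and 8, with Cxcl13 at 6.69 and 6.62, had B cell scores above 0 with Glycam1 at 3.10 and 3.19. Replicate 9, with Cxcl13 at 6.70 and Glycam1 at 3.10, had a B cell score of -0.51. Leaving out replicates 2, 10 and 11 together, a choice made after Glycam1 was seen, gave B cell medians of 0.15 for diabetes in ApoE/RAGE null, -0.12 for diabetes in ApoE null and -0.11 for RAGE deletion in diabetes. Replicates 10, 2 and 11 had B cell scores of 2.79, 0.87 and 0.29, so leaving them out takes away high B cell values whatever their source. The part of lymph node tissue in the lymphocyte values was not tested.

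**Figure D5:**
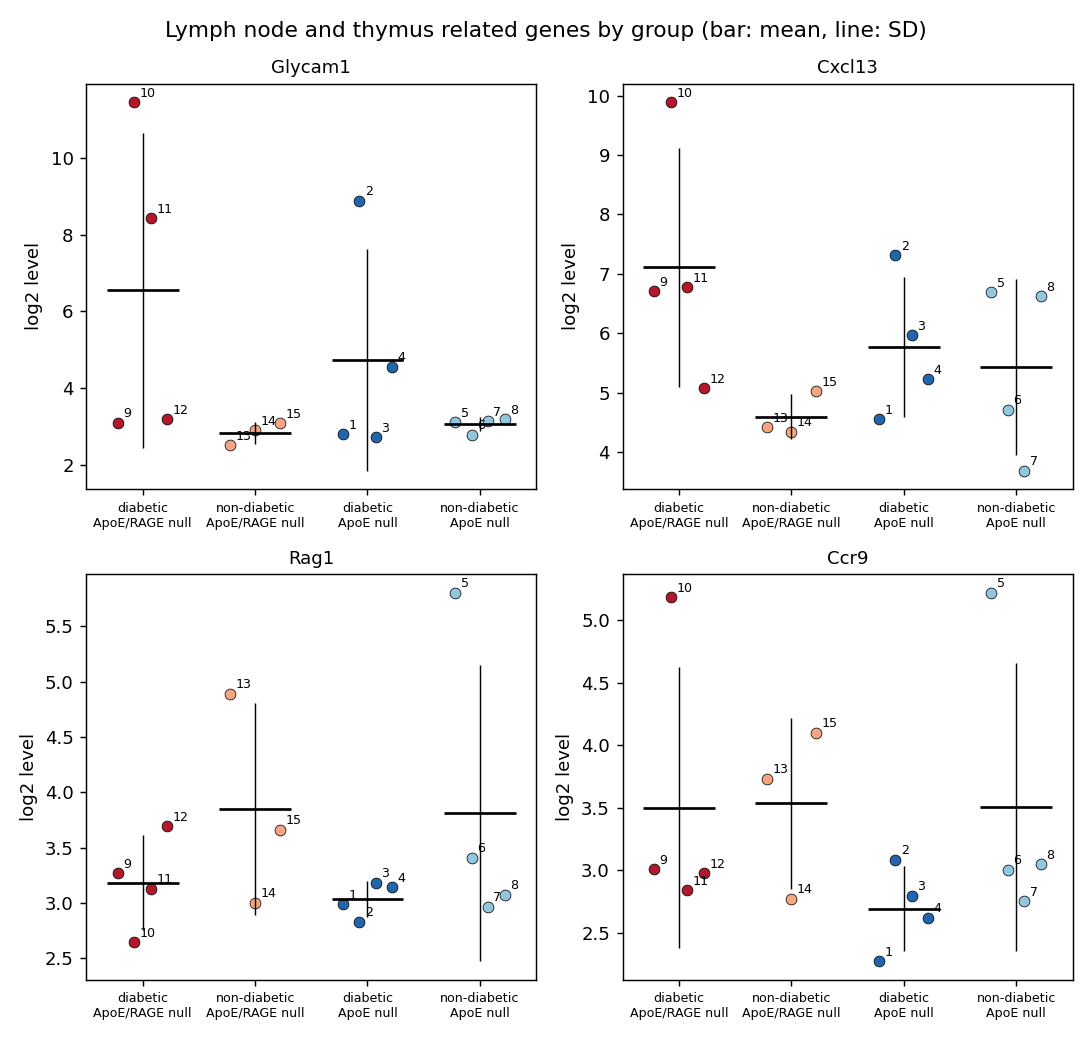
Log2 level of Glycam1 and Cxcl13, genes of lymph node vessels and stroma, and of Rag1 and Ccr9, genes of the thymus among other sites, in each aorta by group; points are arrays with their replicate number, bars are means and vertical lines the SD. Glycam1 is high in replicates 10, 2 and 11, Rag1 in replicates 5 and 13, and Ccr9 in replicates 5 and 10.

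Further lymphocyte genes outside the list were read as well. Of 15 other B cell genes 13 were highest in replicate 10 and 12 had replicate 2 second. Of 17 other T cell genes 16 were highest in replicate 10, with replicate 2 second in 4. Of 12 other NK and cytotoxic genes 7 were highest in replicate 10 and 3 in replicate 5. H2-Ob, a class II antigen loading regulator of B cells, read 7.09 in replicate 10 and 4.23 in replicate 2, and at most 3.06 elsewhere. Ccr7, the receptor that guides naive T cells to lymph nodes, read 6.58 in replicate 10 and 2.37 to 3.25 elsewhere. All 8 pan-leukocyte genes were highest in replicate 10 as well, with Ptprc (CD45) at 10.40 there, 8.29 in replicate 2 and at most 7.93 elsewhere.

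Of 8 plasma cell genes 5 were highest in replicate 10, and the others were Sdc1 (highest in replicate 3), Tnfrsf17 (replicate 5) and Irf4 (replicate 14). Jchain, which joins immunoglobulin M and A chains, read 10.85 in replicate 10, then 7.54, 7.07, 6.75 and 6.72 in replicates 11, 5, 2 and 8, and at most 4.47 elsewhere. Igha, the immunoglobulin A heavy chain, read 12.17 in replicate 10 and 8.98 in replicate 11, and at most 6.30 elsewhere. Macrophage genes (7 of 10) and neutrophil genes (5 of 7) were mostly highest in replicate 10 too. Of the smooth muscle genes 0 of 7 were highest there, of the endothelial genes 0 of 6 and of the white adipocyte genes 0 of 5. Replicate 10 was the highest for 10.9% of all probe sets, so 0 is near that share in lists this short.

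Replicate 5 of the non-diabetic ApoE null group had another pattern. Of 6 thymocyte genes 4 were highest in it, namely Dntt (4.29), Rag2 (3.99), Arpp21 (3.60) and Ccr9 (5.22), and so were all 4 erythrocyte genes, among them Alas2 (9.33) and Slc4a1 (5.99). This array was the highest for 15% of all probe sets. None of the 6 thymocyte genes was highest in replicate 10, where Ccr9, a receptor also found on mature lymphocytes, read 5.19. Ptcra, the pre-T cell receptor chain that is specific to thymocytes, lay between 2.92 and 3.61 on every array. The part of thymus or blood in the values of replicate 5 was not tested.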

How the data were processed

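RNA of 15 mouse aortas was measured on Affymetrix expression arrays. RMA, named without a version in the submitters' processing notes, was the authors' method for the deposited log2 values. Per the labels' design text, arrays and controls within each combination of genotype and disease were normalized together, so whether all 15 arrays ran as 1 set is not given in the sources used here. Array medians spanned 4.36 to 4.43. Arrays have no read depth, and their number limits the precision. P-values measure the spread between mice as labelled.

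Of 45101 probe sets 64 controls were left out and 45037 tested. The annotation, of 2016, gave 34945 probe sets 1 gene, 932 several and 9160 none. Of the 35 genes measured, all matched the RefSeq gene table (GRCm38.p6). Each group had its own mean in a limma fit (3.58.1, R 4.3.3) of the 15 arrays, with eBayes and two-sided p-values adjusted by Benjamini-Hochberg across the table, called at 0.05. The fit was tested on simulated data. Python 3.11.15 and matplotlib 3.10.9 drew the figures. The genes, the lists of other cell types and the named genes (every listed gene, with values in every array for defining genes and those of smallest p; genes of other lists shown beside them were in part chosen after their values were seen) were chosen with earlier results of these data known. Alternatives were the submitters' B threshold, a fit of the compared groups alone, a filter that kept probe sets above the array median on at least 3 arrays, quantile normalization, median centring, trended robust variance, array weights, the mean over a gene's probe sets, and arrays left out.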

Additional observations from a re-analysis of the deposited data

Results flagged for a closer look

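Genes and scores were picked out where 1 array of a group of 4 stood apart from the other 3 by more than Dixon's 95% critical value. The test was applied to 114 combinations of a gene or score with a group, and 28 passed. Chance picks out about 1 in 20 when the sets are independent. Here the genes were read on the same arrays and the scores are means of these genes. The number that passed therefore cannot be compared with that rate, and the share over all probe sets is not given.

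In diabetic ApoE/RAGE null aortas replicate 10 stood apart 14 times, always as the highest. The B cell genes were Cd22 (7.24), Fcer2a (5.86), Cr2 (5.92) and Fcrla (5.17). The T cell genes were Cd3g (7.34), Cd4 (6.60), Cd8b1 (6.13), Cd2 (6.52), Cd5 (5.47), Cd6 (4.83) and Lat (5.56), and the cytotoxic genes Gzma (4.76) and Nkg7 (5.22). The T cell score of that array, 2.03, stood apart as well. Ms4a1, Cd79a and Pou2af1 did not pass there, since replicate 11 also lay above replicates 9 and 12.

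In diabetic ApoE null aortas replicate 2 stood apart as the highest 8 times, for Ms4a1 (6.23), Pou2af1 (4.53), Fcer2a (4.43), Cr2 (4.03), Cd247 (4.21), Cd2 (3.91), Nkg7 (3.58) and the B cell score (0.87). Replicate 3 of that group was the lowest for Cd6 (3.39) and Zap70 (6.77), by small gaps.

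In non-diabetic ApoE null aortas replicate 5 stood apart as the highest for Cd8a (5.12), Cd8b1 (4.26) and Rag1 (5.80), and replicate 7 as the lowest for Cd27 (2.31). The non-diabetic ApoE/RAGE null group, with 3 arrays, was too small for this check.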

How the results depend on the processing

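No paired analysis was possible because no replicate number, 1 to 15, is shared by 2 groups. No lymphocyte gene was called by limma in any comparison under any alternative run; the smallest adjusted p over them was 0.11, for Bank1 with RAGE deletion in diabetes without replicates 2, 10 and 11. The B cell median for diabetes in ApoE/RAGE null, 1.05, was 0.1478 without replicates 2, 10 and 11 together, an alternative chosen after the data were seen. With each array left out in turn, that median ranged from 0.40 to 1.42, the T cell median from -0.05 to 0.64 and the NK and cytotoxic median from 0.03 to 0.33. For RAGE deletion in diabetes the ranges were -0.21 to 0.90, 0.10 to 0.72 and -0.08 to 0.25, and for the interaction 0.13 to 1.20, -0.06 to 0.71 and 0.00 to 0.31. For diabetes in ApoE null they were -0.12 to 0.30, -0.18 to 0.07 and -0.01 to 0.15, and for RAGE deletion without diabetes -0.39 to -0.20, 0.02 to 0.19 and -0.07 to 0.07. The lower end came from leaving out replicate 10 in the first 3 of these comparisons. Medians were counted as moved against the spread of array scores, which replicate 10 widens, so turns of sign are given here as well. Single genes were not steady: over the alternatives 23 of 35 turned their sign at least once for diabetes in ApoE null, 12 for RAGE deletion without diabetes, 17 for diabetes in ApoE/RAGE null, 22 for RAGE deletion in diabetes and 14 for the interaction (12 of these 14 without replicate 10). The 4 genes with the smallest p in each comparison kept their sign under every alternative that gave them a value. They were picked by that p from these same arrays, so a steady sign is partly built in. Rag1, Cd247 and Fcrla, which are among them, had no value under the filter on dim probe sets. The number with an unadjusted p under 0.05 for diabetes in ApoE/RAGE null, 2, was 10 with array weights and 0 with a trended robust variance. The share of all probe sets at that p is not given for these alternatives. The filter on dim probe sets kept 15 of the 35 genes (8 B cell genes, 6 T cell genes, Thy1 and no NK or cytotoxic gene), so it gave no NK value, and many of these genes are near the floor of the arrays. The number of probe sets called for RAGE deletion in diabetes, 110, ranged from 0 to 931 over the arrays left out, the highest without replicate 2.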
